A study of Mus musculus with 2031 samples.

Results

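The genes described here are 9 G protein-coupled receptors of astrocytes (Ednrb, Adra1a, P2ry1, S1pr1, Adora1, Adra2a, Adora2b, Adrb1 and Gpr37l1) and Itpr2, the calcium channel on which several of them act. They were chosen by name and matched by symbol, and are 10 of the 49671 gene rows of the count table. All 10 were found and all 10 passed the filter on low counts in every comparison below.

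Receptors of this kind span the plasma membrane and switch on G proteins when a ligand binds. Receptors coupled to Gq activate phospholipase C, which makes inositol trisphosphate (IP3), and IP3 opens channels of the endoplasmic reticulum that let calcium into the cytosol. Itpr2 encodes the IP3 receptor regarded as the main one of astrocytes, and noradrenaline acting on alpha-1 receptors is a well known trigger of calcium rises in these cells. Receptors coupled to Gi lower cyclic AMP and those coupled to Gs raise it.

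The data are single-cell RNA-seq (Smart-seq2, full-length cDNA of 1 cell per well) of cells sorted from the cortex and hippocampus of C57BL/6J mice at postnatal day 56. Tissue was digested with papain, cleaned on a Percoll gradient and sorted for viable cells that carried ATP1B2 (the ACSA-2 antigen) and lacked the oligodendrocyte antigen O1. The 2 cortical suspensions each came from 1 mouse and the 2 hippocampal suspensions each from 4 pooled littermates, so that an effect of brain area cannot be told apart from one of litter or pooling. Cells also carry a label for the thermal block of the library PCR, which was not a term in the fits. In 1 alternative setting, the areas were compared in all astrocytes of block 1 alone. Cell types and the astrocyte subtypes AST1 to AST5 are the study's own clusters, and the study went on to record calcium signals evoked by an alpha-1 agonist in brain slices, a readout that depends on such receptors and channels.

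Of 2030 cells, 1781 were typed astrocytes (461 and 499 in Cortex replicates 1 and 2, 393 and 428 in Hippocampus replicates 1 and 2), and mural cells (27, 12, 48 and 47 in the same order) and 30 endothelial, 17 neuronal, 11 microglial and 9 oligodendrocytic cells were sorted with them. AST1 held 657 cells, AST2 555, AST3 452, AST4 91 and AST5 26. AST4 had 41 and 48 cells in the hippocampal suspensions and 2 in the cortex, while AST2 had only 10 and 22 cells in the hippocampus. Depth per cell ran from 600758 to 3238215 gene counts with a median of 1458411. Typed astrocytes matched their label: 10 astrocyte markers summed to 43623 to 46206 CPM (counts scaled to a total of 1000000 per sum) in the astrocytes of the 4 suspensions and to 3170 to 3485 CPM in mural cells, and 7 mural markers to 102.2 to 146.3 CPM in astrocytes against 21394 to 28246 CPM in mural cells. Endothelial sums held 18966 to 23731 CPM of 6 endothelial markers, and neurons 2591 to 3045 CPM of 5 neuron markers, with Rbfox3 at 0. No cells had identical counts.

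For levels, the counts of all cells of a type were added up within a suspension and divided by the total, giving 1 CPM value per type and suspension. The suspension is the replicate, and means are given with the SD over suspensions. Counts came from PCR-amplified cDNA without molecular identifiers, so that intervals and limits of detection cover counting error only. In such sums, fewer cells with a transcript and less transcript per cell cannot be told apart, which is why shares of cells are given further on.

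Levels of the genes in astrocytes differed by more than 3 orders of magnitude. Per kilobase of exon, which allows a comparison between genes, Gpr37l1 was highest with 3316 ± 234.1 CPM per kb (SD, n = 4 suspensions), followed by S1pr1 with 1116 ± 230, Ednrb with 275.4 ± 44.3 and Adora2b with 117.4 ± 30.1 CPM per kb. Adora1 had 14.8 ± 2.86 CPM per kb and Itpr2, whose exons span 14.8 kb, had 7.28 ± 0.579 CPM per kb. Adra1a had 3.79 ± 1.61, Adrb1 2.92 ± 1.46, Adra2a 1.38 ± 0.636 and P2ry1 0.616 ± 0.341 CPM per kb, and among these 4 the ranges of mean ± SD of neighbouring genes overlapped. From Gpr37l1 down to Adra1a they did not.

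**Figure D1:**
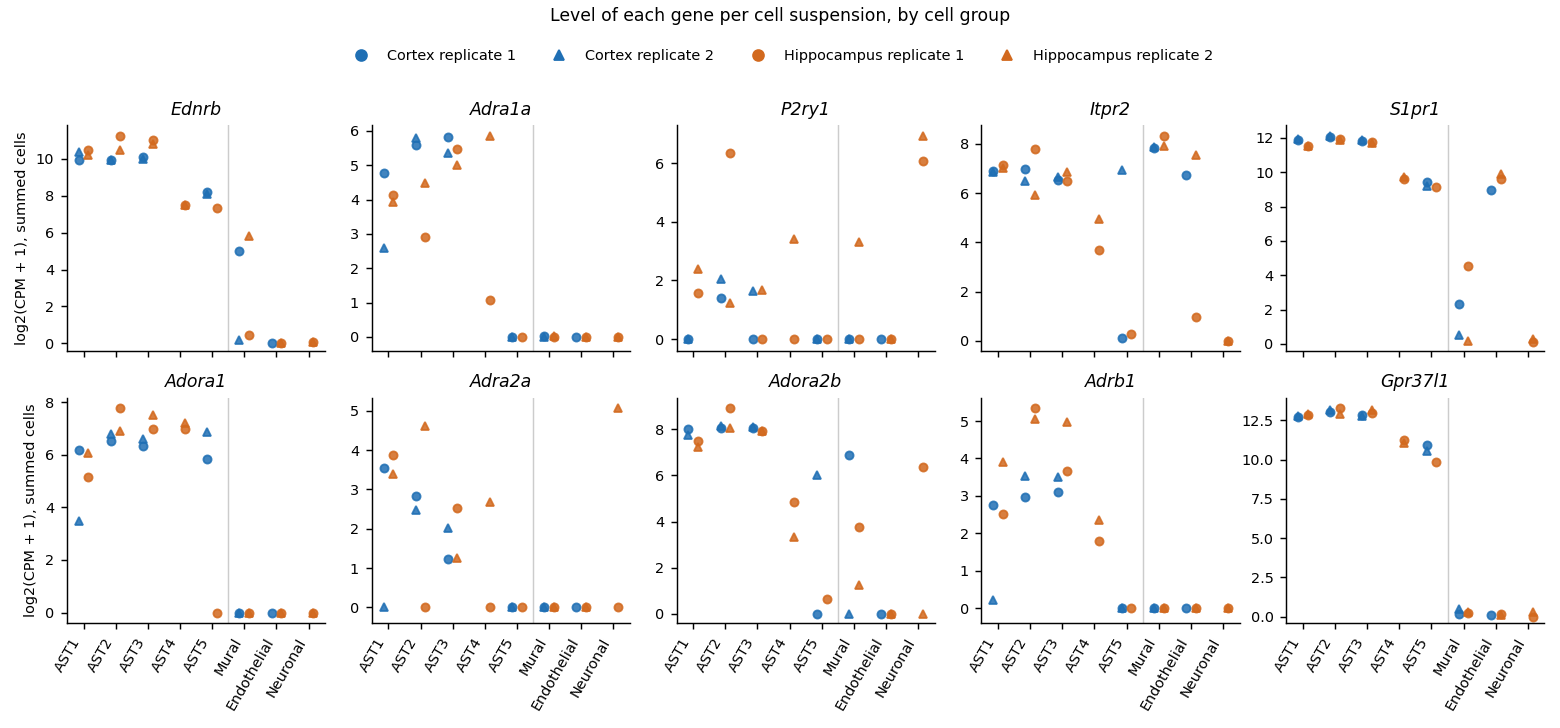
Level of each of the 10 genes in the summed cells of each group, as log2(CPM + 1), with 1 point per cell suspension (blue, cortex; orange, hippocampus; circles and triangles, replicates 1 and 2). Points left of the vertical line are astrocyte subtypes, and Gpr37l1 and S1pr1 are seen in every subtype with lower points in AST4 and AST5, while Itpr2 is also high in mural cells, at 226.5 to 319.3 CPM.

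Among the Gq-coupled receptors, the endothelin receptor Ednrb (chr14:103814625-103844402, minus strand, GRCm38) dominated. Astrocytes had 1029, 1027, 1424 and 1219.5 CPM in Cortex replicates 1 and 2 and Hippocampus replicates 1 and 2. Mural cells had 31.3, 0.135, 0.383 and 56.6 CPM in the same order, so that the groups were far apart. No count of Ednrb was found in 30 endothelial cells, which allows a share of up to 10%, against 85.6% of astrocytes with a count. The alpha-1A adrenergic receptor Adra1a (chr14:66635251-66771168, plus strand), a receptor for noradrenaline, was much lower, with 46.96, 43.4, 19.2 and 22.9 CPM in astrocytes. Mural cells held 2 counts of it in all, and endothelial cells and neurons none. With 30 and 17 cells, this allows shares of up to 10% and 17.6%, against 10.2% of astrocytes with a count. The purinergic receptor P2ry1 (chr3:61002795-61008982, plus strand), which binds ADP, was the lowest of the 10 genes in astrocytes, with 0.792 to 4.32 CPM. It was at 66.3 and 121.9 CPM in the neurons of the 2 hippocampal suspensions, where 6 of 17 cells had a count. Reads over both P2ry1 and the overlapping gene model Gm37035 cannot be told apart, since the library did not mark strand. The counts keep ambiguous reads apart from genes, so that such reads may be missing from P2ry1.

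The calcium channel gene Itpr2 (chr6:146108299-146502223, minus strand) had 109.2, 95.8, 116.1 and 109.8 CPM in astrocytes. Astrocytes did not have the highest level: mural cells, the contractile cells around vessels, had 226.5, 231.1, 319.3 and 238.01 CPM, and the 2 groups did not overlap, as in 9.91% of all genes tested with higher sums in mural cells and 27% with higher sums in astrocytes. The fitted log2 difference between astrocytes and mural cells, which also takes the composition of each sum into account, was -0.64 (SE 1.02, edgeR adjusted p = 0.809). Endothelial cells ranged from 0.977 to 185 CPM over 3 suspensions, around the astrocyte level. Of 17 neurons none had a count of Itpr2, which allows a share of up to 17.6% of neurons, against 29.3% of astrocytes with a count. The other IP3 receptor genes were low in astrocytes, with 0.348 ± 0.189 CPM per kb for Itpr1 and 0.00579 ± 0.0116 CPM per kb for Itpr3, against 7.28 CPM per kb for Itpr2; these relatives were singled out after their values were seen.

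Of the Gi-coupled receptors, the sphingosine 1-phosphate receptor S1pr1 (chr3:115710433-115715072, minus strand) was by far the highest, with 3911, 4095, 2787 and 2808 CPM in astrocytes. Endothelial cells, in which S1pr1 is known for its part in vessel integrity, had 503, 765 and 949 CPM. Summed over suspensions, astrocytes were 4.16-fold above endothelial cells and 367.4-fold above mural cells, while neurons held 4 counts. The adenosine A1 receptor Adora1 (chr1:134199223-134235431, minus strand) was at 83.6, 95.4, 63.2 and 100 CPM in astrocytes. It had no count in any mural, endothelial, neuronal or microglial cell. This allows shares of up to 2.24%, 10%, 17.6% and 27.3%, against 18.8% of astrocytes with a count, which lies under the limit of the microglia. Among 9 oligodendrocytic cells, by contrast, 5 had a count of Adora1 and the summed level was 168 CPM. Adora1 shares up to 838 exonic bases with Mybph on the other strand, and reads over both cannot be told apart and may be missing from Adora1. The alpha-2A adrenergic receptor Adra2a (chr19:54044151-54048982, plus strand) was low, with 4.83, 3.53, 10.3 and 8.13 CPM in astrocytes.

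Of the Gs-coupled receptors, the adenosine A2B receptor Adora2b (chr11:62248984-62266453, plus strand) had 257.7, 269.99, 181.03 and 157.9 CPM in astrocytes. No count was found in 30 endothelial cells, which allows a share of up to 10%, against 38.6% of astrocytes with a count. Mural cells had 116.1, 0, 12.8 and 1.41 CPM. The beta-1 adrenergic receptor Adrb1 (chr19:56722199-56733113, plus strand) stood at 6.85, 9.33, 6.36 and 17.02 CPM in astrocytes and had no count in any mural, endothelial, neuronal, microglial or oligodendrocytic cell. Against the 6.63% of astrocytes with a count, only the mural cells had a lower limit, 2.24%, which pools the cells of 4 suspensions. Gpr37l1 (chr1:135160234-135167681, minus strand), a receptor related to the endothelin receptors whose ligand is debated, had 7753, 8132, 6914 and 7294 CPM in astrocytes. In mural cells it lay between 0.139 and 0.406 CPM.

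In the test over all genes (edgeR quasi-likelihood test with Benjamini-Hochberg adjustment), 5 of the 10 genes were higher in astrocytes than in mural cells, where 15.1% of 17404 genes tested were called. They were Gpr37l1 (log2 difference 15.57, SE 0.96, adjusted p = 3.5184e-05), S1pr1 (9.93, SE 1.69, adjusted p = 0.00829), Adra1a (adjusted p = 0.0194), Adora1 (adjusted p = 0.0255) and Adrb1 (adjusted p = 0.0302). For Ednrb the difference was 6.34 (SE 1.79) with an adjusted p of 0.050012. With the suspensions entered as a paired block, 2 of these calls were left, those of Gpr37l1 and S1pr1. Leaving out Cortex replicate 1 or Hippocampus replicate 2 left 1 call, and leaving out Cortex replicate 2 or Hippocampus replicate 1 left 2. Over all genes, 2210 were called higher and 413 lower in astrocytes than in mural cells, with a median log2 difference of 1.36. In the comparisons with endothelial cells and neurons below, that median was 2.60 and 2.34.

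Against endothelial cells 4 of the 10 genes were higher in astrocytes, beside 5.61% of all genes tested: Gpr37l1 (adjusted p = 7.6058e-05), Ednrb (0.0201), Adra1a (0.0291) and Adora1 (0.0433). The calls of Adra1a and Adora1 rest on no count in 30 endothelial cells, with the limit on the share given above, which for Adra1a is close to the share of astrocytes. S1pr1 missed the threshold, with a log2 difference of 3.31 (SE 1.43, edgeR adjusted p = 0.134), and Itpr2 had a difference of 0.88 (SE 1.13, adjusted p = 0.648). Paired by suspension, 2 calls were left, those of Ednrb and Gpr37l1, and leaving out a suspension left 2 calls without Cortex replicate 2 and 1 call without any of the other 3. Endothelial sums also held 7144 to 10913 CPM of mural markers, and the part of this in the comparison was not tested.

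Against neurons 3 of the 10 genes were higher in astrocytes, beside 2.86% of all genes: Gpr37l1 (adjusted p = 9.5558e-05), S1pr1 (0.0120) and Itpr2 (0.0145). All 3 calls held in the edgeR fit paired by suspension. Leaving out Cortex replicate 1 or Hippocampus replicate 2 left 1 of them, and leaving out either other suspension left 2. P2ry1 had a fitted log2 difference of -0.82 (SE 6.76, adjusted p = 0.982), although its summed level in astrocytes was 0.0276 of that in neurons. The neurons came from 2 hippocampal sums of 8 and 9 cells, so that without a hippocampal suspension 1 neuron sum was left, which was assumed to vary like the other groups.

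The level of a sum hides how the transcripts were spread over cells. Gpr37l1 was counted in 99.6% of astrocytes, S1pr1 in 99.2% and Ednrb in 85.6%. Adora2b was counted in 38.6% and Itpr2 in 29.3% (95% Wilson interval 27.2 to 31.5%), Adora1 in 18.8%, Adra1a in 10.2%, Adrb1 in 6.63%, Adra2a in 2.81% and P2ry1 in 1.01%. Thinning each cell to 50000 counts lowered these shares, Ednrb to 83.3%, Itpr2 to 24.5%, Adora1 to 16.7%, Adra1a to 8.76% and Adrb1 to 5.05%. For Ednrb and Itpr2 the drop was larger than the SD over suspensions (1.71% and 1.975%). Thinning draws from reads made after PCR, so that it covers depth and not transcripts missed before amplification. Gpr37l1 and S1pr1 were counted in nearly every astrocyte and Ednrb in most, while the adrenergic receptors were counted in a minority of cells. Whether cells without a count lacked the transcript cannot be told from these shares.

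**Figure D2:**
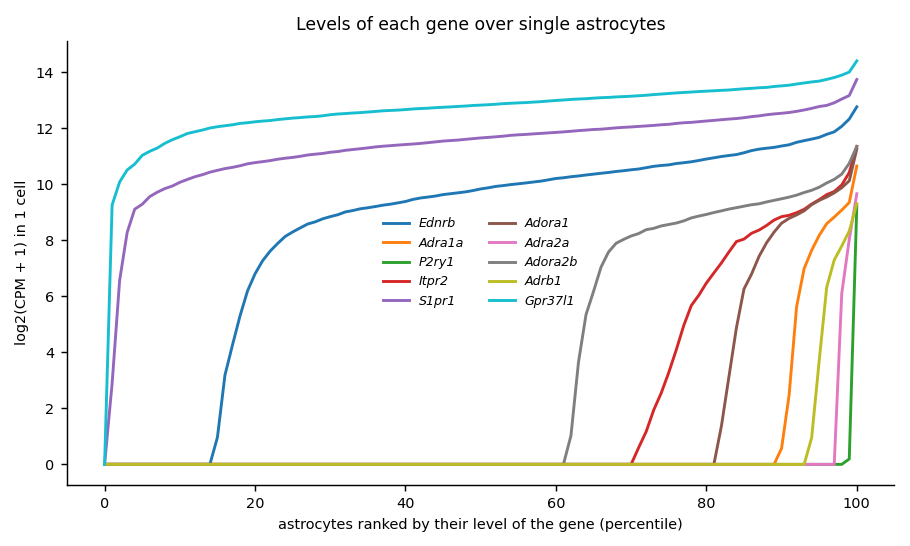
Level of each of the 10 genes in single astrocytes, as log2(CPM + 1), with the cells ranked by that gene from lowest to highest (percentile on the x axis). Curves of Gpr37l1 and S1pr1 are above 0 from the far left on, that of Ednrb in 85.6% of cells and that of Itpr2 in the top 29.3%.

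Itpr2 had a median of 274.2 CPM among the 522 astrocytes in which it was counted, Adora1 417 CPM and Adra1a 286.2 CPM among theirs. P2ry1, counted in only 18 astrocytes, had a median of 272.2 CPM in those cells, close to that of Itpr2. Without molecular identifiers, the number of molecules behind such a level cannot be told. The tenth of astrocytes with the most Itpr2 held 73.6% of all its level, against 18.5% for Gpr37l1 and 31.2% for Ednrb. A share has to be read against cells that should lack the gene. Gpr37l1 was counted in 21.6% of mural cells, but at a median of 1.00 CPM in those cells, and thinning cut the share to 0.746%. In astrocytes, shares of cells with at least 5 counts were lower than the shares with any count. They were 26.7% against 29.3% for Itpr2, 37.7% against 38.6% for Adora2b and 9.26% against 10.2% for Adra1a. Median depth was 1469312 counts in astrocytes and 1216970.5 in mural cells.

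A median of 4 of the 10 genes was counted per astrocyte (range 0 to 8). At least 1 Gq-coupled receptor of the set (Ednrb, Adra1a or P2ry1) was counted in 86.9% of astrocytes, and such a receptor together with Itpr2 in 25.8% (25.99 ± 2.65% over 4 suspensions). Itpr2 with or without such a receptor was counted in 29.3%, so that the joint share mainly follows how often Itpr2 was counted. It is not the share of cells that hold both transcripts, since transcripts can be missed. Across single astrocytes of 1 suspension, levels of Gpr37l1 and S1pr1 had rank correlations between 0.20 and 0.43 over the 4 suspensions, and Ednrb and Itpr2 between -0.07 and 0.03. These correlations share the depth of each cell and are given as a description.

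Within the astrocytes, the subtypes were set by clustering these same counts, so that differences between subtypes are not independent evidence. AST4, which was found almost only in the hippocampus, had less Itpr2, Ednrb, Adora2b, S1pr1 and Gpr37l1 than AST1, the main subtype of the same suspensions. Itpr2 was at 11.8 and 29.97 CPM in AST4 of Hippocampus replicates 1 and 2, against 137.9 and 126.8 CPM in AST1 of the same suspensions and 118.5 and 114.6 CPM in AST1 of the cortex. Ednrb was at 182.2 and 179.6 CPM in AST4 against 1441 and 1201 CPM in AST1 of the hippocampus; the 2 AST4 cells of the cortex, too few to enter the fit, had 811 CPM. Adora2b was at 27.6 and 8.99 CPM in AST4, compared with 181.7 and 150.4 CPM in AST1. S1pr1 stood at 772 and 859 CPM against 2931 and 2925 CPM, and Gpr37l1 at 2424 and 2167 CPM against 7290 and 7600 CPM. In each of these 5 genes both AST4 values lay below every AST1 value, as in 9.74% of all genes tested, while Adora1 was the 1 member with both above, as in 18.6%. By the edgeR test 2.00% of all genes were called in this comparison.

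Of the 10 genes, 5 passed the test as lower in AST4 than in AST1, and none as higher, out of 370 of 18463 genes called. The log2 differences were -3.72 for Adora2b (SE 0.46, edgeR adjusted p = 0.000635), -3.43 for Ednrb (SE 0.26, adjusted p = 1.4101e-05), -2.98 for Itpr2 (SE 0.52, adjusted p = 0.00893), -2.23 for S1pr1 (SE 0.10, adjusted p = 2.2222e-07) and -2.02 for Gpr37l1 (SE 0.12, adjusted p = 1.8633e-06). The median over the 10 genes was -2.12, against -0.0067 over all genes. Without Cortex replicate 1, Cortex replicate 2 or Hippocampus replicate 1 the adjusted p of Itpr2 was 0.0907, 0.0868 and 0.0713. Among cells labelled as made with template-switching oligo of 0 freeze/thaw cycles, Itpr2 (0.0811) and Adora2b (0.561) were above the threshold. With limma voom, which called 2.14% of all genes, 1 of the 5 calls was left, that of Gpr37l1, with adjusted p-values of 0.0687 for Itpr2, 0.123 for Adora2b, 0.2905 for S1pr1 and 0.896 for Ednrb.

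Adora1 did not share this pattern. AST4 had 126.6 and 145.5 CPM, and AST1 of the same suspensions had 34.4 and 66.04 CPM. The log2 difference was 0.97 (SE 0.59, edgeR adjusted p = 0.621). Adra1a was at 1.13 and 57.2 CPM in AST4, where 5 of 91 cells had a count, and no direction can be read from it. The shares of AST4 cells with a count were 34.1% for Ednrb, 14.3% for Itpr2 and 5.49% for Adora2b, compared with 88.9%, 32.9% and 33.5% in AST1. Gpr37l1 and S1pr1 were still counted in 96.7% and 91.2% of AST4 cells. A Gq-coupled receptor together with Itpr2 was counted in 6.59% of AST4 cells and in 29.2% of AST1 cells, shares that cannot exceed those of Itpr2 given above.

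**Figure D3:**
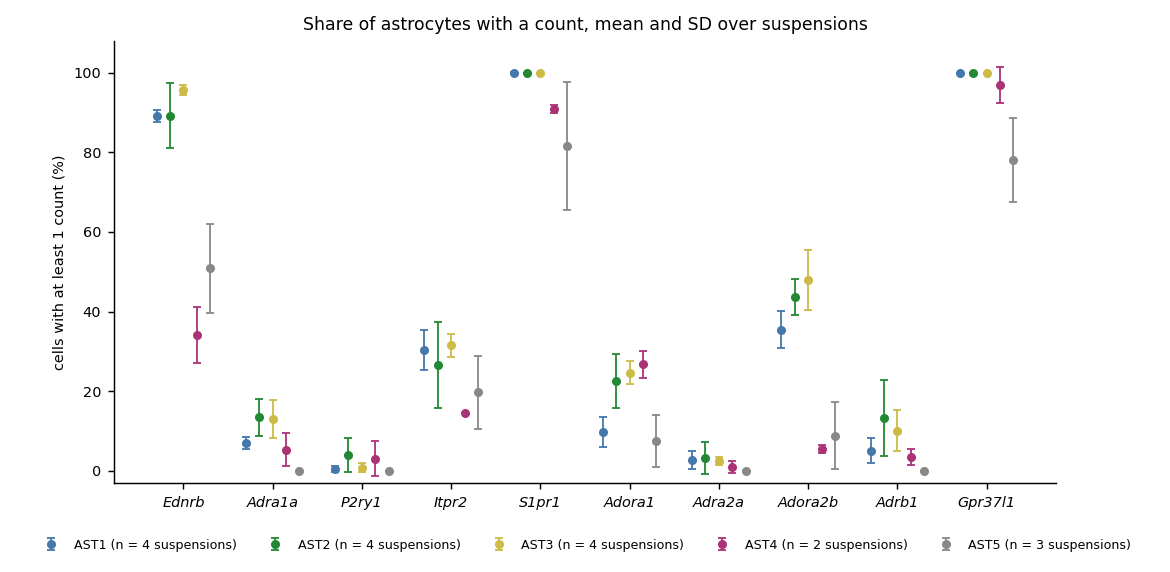
Share of cells with at least 1 count of each gene, in percent, by astrocyte subtype; points are means and bars the SD over cell suspensions (n = 4 for AST1 to AST3, 2 for AST4 and 3 for AST5). For Ednrb, Adora2b and Itpr2 the AST4 points lie below those of AST1 to AST3. For Adora1 the AST4 point lies highest, with a bar that overlaps those of AST2 and AST3.

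General astrocyte markers moved with these genes. Of 10 markers, 6 passed the test as lower in AST4 than in AST1, and their summed level was 32181 to 34395 CPM in AST4 against 44767 to 48336 CPM in AST1, with none at 0. Neuron markers summed to 19.96 to 70.5 CPM in AST4 and to at most 8.60 CPM in AST1. AST4 cells also showed more genes, with a median of 2562 against 1992. The part of these in the result was not tested.

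Against the mean of AST1, AST2 and AST3, with which the AST4 comparison above shares its samples, the same 5 genes were lower in AST4, where 2.89% of all genes were called. The log2 differences ran from -4.0004 for Adora2b (SE 0.45, edgeR adjusted p = 0.000236) to -2.10 for Gpr37l1 (SE 0.11, adjusted p = 7.8715e-07), with -2.79 for Itpr2 (SE 0.49, adjusted p = 0.00772). Without Cortex replicate 1, Cortex replicate 2 or Hippocampus replicate 1 the adjusted p of Itpr2 was 0.0627, 0.0584 and 0.0836, and 4 genes were left. With limma voom (4.16% of all genes called) 1 of the 5 was left, Gpr37l1, with adjusted p-values of 0.0629 for Itpr2, 0.0666 for Adora2b, 0.194 for S1pr1 and 0.852 for Ednrb.

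AST1, AST2 and AST3 had similar mean levels of the abundant genes. Ednrb averaged 1244 ± 195.3 CPM in AST1, 1462 ± 681 CPM in AST2 and 1503 ± 508 CPM in AST3, and Itpr2 124.4 ± 10.3, 124.1 ± 70.5 and 98.5 ± 12.2 CPM. These SDs span both areas. Ednrb averaged 1167, 993.6 and 1073 CPM in AST1, AST2 and AST3 of the cortex. In the hippocampus it averaged 1321, 1930 and 1933 CPM, with AST2 sums of only 10 and 22 cells. Between AST2 and AST3 none of the 10 genes passed the edgeR test, none reached an unadjusted p under 0.05 (4.19% of all genes did), and 0.0487% of all genes were called. DESeq2 and limma voom called none either, beside 5.37% and 1.50% of all genes. The log2 difference was 0.10 for S1pr1 (SE 0.07), 0.03 for Gpr37l1 (SE 0.09), -0.18 for Ednrb (SE 0.17) and 0.18 for Itpr2 (SE 0.36), so that the sparse genes were measured less closely. In CPM, S1pr1 was higher in AST2 than in AST3 in each suspension, by 1.14-fold to 1.21-fold, as was Adora2b, by 1.01-fold to 1.98-fold, and none of the 10 genes was lower in each. Of all genes tested, 3.88% were higher and 7.52% lower in every suspension. For S1pr1 the fit paired by suspension gave 0.10 (SE 0.07, edgeR adjusted p = 1). Against the mean of the other subtypes, 3 genes were higher in AST1 (Ednrb, Gpr37l1 and S1pr1, beside 0.758% of all genes), 4 in AST2 (these and Adora2b, beside 1.39%) and 4 in AST3 (the same 4, beside 0.812%). Each of these means contains AST4. When the other subtypes were weighted by their number of cells, which leaves AST4 little weight, none of these 11 calls remained, and with limma voom none remained either. Without Cortex replicate 1, 1 of the 3 calls of AST1 was left, that of S1pr1.

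Adra1a, Adora1, Adrb1 and Adora2b were higher in AST3 than in AST1 in each of the 4 suspensions, and were singled out after their values were seen. Of all genes tested, 7.14% were higher in AST3 in every suspension and 5.43% lower. For Adra1a the ratio was 2.11-fold, 7.89-fold, 2.62-fold and 2.21-fold in Cortex replicates 1 and 2 and Hippocampus replicates 1 and 2. Means were 42.5 ± 10.1 CPM in AST3 and 15.6 ± 8.78 CPM in AST1, and shares of cells 14.4% and 6.39%. Adora1 was higher in AST3 by 1.10-fold to 9.50-fold, Adrb1 by 1.32-fold to 67.1-fold and Adora2b by 1.02-fold to 1.62-fold. The highest ratios of Adra1a, Adora1 and Adrb1 were all in Cortex replicate 2, whose AST1 sum of 55 cells had only 0.155 CPM of Adrb1. Itpr2 went the other way, with AST3 at 0.636 to 0.909 of AST1. The difference between AST3 and AST1 was not itself tested, and against the mean of the other subtypes AST1 had a log2 difference of -1.01 for Adra1a (SE 0.84, edgeR adjusted p = 0.999) and of -1.22 for Adora1 (SE 0.43, adjusted p = 0.490).

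AST5, with 26 cells, also had low levels of the main receptors. Gpr37l1 was at 1931, 1508 and 936 CPM in the 3 suspensions with at least 5 cells, S1pr1 at 678, 585 and 561 CPM and Ednrb at 294.6, 273.5 and 160.9 CPM. Adra1a and Adrb1 had no count in AST5. Itpr2 was at 0.0812, 120.4 and 0.230 CPM, a level set by 1 suspension. Against the mean of AST1 to AST4, 5 genes passed the edgeR test as lower in AST5: S1pr1 (log2 difference -2.73, SE 0.09, adjusted p = 6.4741e-10), Gpr37l1 (-2.62, SE 0.22, adjusted p = 3.4908e-06), Ednrb (-2.16, SE 0.32, adjusted p = 0.000352), Adra1a (adjusted p = 0.00124) and Adrb1 (adjusted p = 0.00235). The last 2 rest on no count in 26 cells, which allows a share of up to 11.5%, above the 10.2% and 6.63% of all astrocytes, so that a lower share in AST5 was not detectable with so few cells. With limma voom (22.9% of all genes called) S1pr1, Gpr37l1 and Ednrb lost their calls (adjusted p = 0.355, 0.888 and 0.974), and Itpr2 (0.0318) and Adora2b (0.0108) gained one. In that comparison 16.7% of 18233 genes were called and the median over all genes was -4.35, so that S1pr1, Gpr37l1 and Ednrb lay above the median gene. AST5 cells had a median of 1.59% of reads outside exons, against 10.7 to 13.96% in the other subtypes, and a median of 1674.5 genes. Oligodendrocyte markers summed to 0.230 to 1036 CPM in AST5, with Mog and Mag at 0, and to 22.5 to 140.3 CPM in AST1 to AST4. The part of these in the result was not tested.

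**Figure D4:**
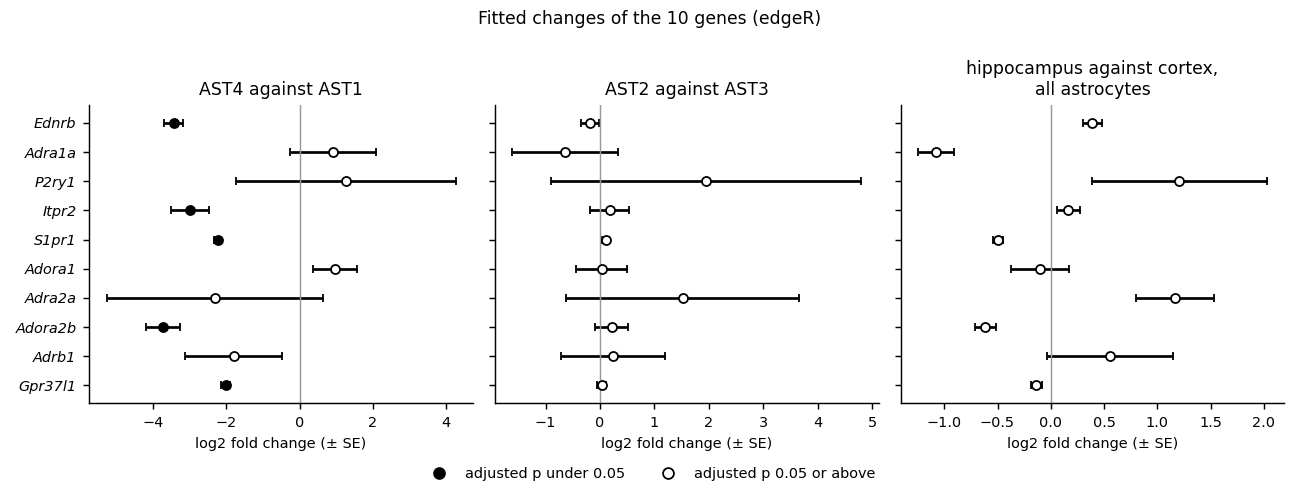
Fitted log2 fold change (x axis) of each gene with its SE, from edgeR, for AST4 against AST1, AST2 against AST3, and hippocampus against cortex in all astrocytes; filled points have an adjusted p under 0.05, and each panel has its own scale. Filled points appear in the AST4 panel only, for Ednrb, Itpr2, S1pr1, Adora2b and Gpr37l1.

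Between brain areas none of the 10 genes was called by edgeR. For S1pr1, astrocytes of the cortex had 3911 and 4095 CPM and those of the hippocampus 2787 and 2808 CPM, a log2 difference of -0.49 (SE 0.05, edgeR adjusted p = 0.155). Adora2b (-0.61, SE 0.10, adjusted p = 0.216) and Adra1a (-1.08, SE 0.17, adjusted p = 0.212) were also lower in both hippocampal suspensions than in both cortical ones, and Ednrb (0.39, SE 0.09, adjusted p = 0.236) higher. Smaller gaps without overlap were also seen for Gpr37l1 (-0.14, SE 0.05, adjusted p = 0.402) and Itpr2 (0.17, SE 0.10, adjusted p = 0.623), and at low levels for Adra2a (1.16, SE 0.37, adjusted p = 0.312) and P2ry1. In all 8 of the 10 genes did not overlap between areas, 4 higher and 4 lower in the hippocampus, but with 2 sums an area 21.9% of all genes were higher without overlap and 24.1% lower, and the sums of Itpr2 were only 109.2 and 95.8 against 116.1 and 109.8 CPM. In this edgeR fit on 4 sums none of the 10 genes and 0% of 19160 genes passed, while 5 of the 10 genes and 13.6% of all genes had an unadjusted p under 0.05. DESeq2 called 4 of the 10 genes, beside 9.70% of all genes, and limma voom none, beside 0.0261%.

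The mix of subtypes differed between areas, so the areas were also compared with subtype as a term. There, the log2 difference between hippocampus and cortex was -0.23 for S1pr1 (SE 0.06, edgeR adjusted p = 0.443), -0.08 for Adora2b (SE 0.25, adjusted p = 1) and 0.65 for Ednrb (SE 0.14, adjusted p = 0.328), and none of the 10 genes was called, beside 0.0867% of all genes. For Adra1a it was -0.71 (SE 0.80, adjusted p = 1), and 0.02 within AST1 (SE 0.74, adjusted p = 1). Within AST3 the Adra1a difference was -0.30 (SE 0.74). In AST2 Adra1a averaged 50.7 CPM in the cortex and 14.03 CPM in the hippocampus, the latter from 10 and 22 cells. For Adora2b the difference was -0.47 within AST1 (SE 0.14, edgeR adjusted p = 0.555) and -0.07 within AST3 (SE 0.14). The fit with subtype as a term also held the AST2 sum of 10 cells in Hippocampus replicate 1, at 485 CPM of Adora2b. The sign turned for Gpr37l1, from -0.14 to 0.11 (SE 0.07, adjusted p = 1), and for Adora1, from -0.10 (SE 0.27) to 0.61 (SE 0.38, adjusted p = 1). Gpr37l1 had higher values in the hippocampus within AST1 (6846 and 7175 CPM in the cortex, 7290 and 7600 CPM in the hippocampus) and within AST3 (7466 and 7143 against 8149 and 9239 CPM), with differences of 0.13 (SE 0.08, edgeR adjusted p = 0.699) and 0.31 (SE 0.08, adjusted p = 0.574). In AST2 its values overlapped, with 8449 and 9112 CPM in the cortex against 9929 and 7768 CPM in the hippocampus, the last 2 from 10 and 22 cells. Within AST1, S1pr1 had 3709 and 3901 CPM in the cortex and 2931 and 2925 CPM in the hippocampus, a log2 difference of -0.34 (SE 0.06, edgeR adjusted p = 0.289). Within AST3 the 4 values were 3678 and 3704 against 3424 and 3337 CPM, a difference of -0.07 (SE 0.06, adjusted p = 0.811). Ednrb within AST3 had 1121 and 1024 CPM in the cortex and 2051 and 1815 CPM in the hippocampus, a log2 difference of 0.90 (SE 0.18, edgeR adjusted p = 0.389), and within AST1 a difference of 0.22 (SE 0.17, adjusted p = 0.756). No gene of the set passed within AST1 (0% of all genes called) or within AST3 (0.00581%). The test of the difference between these area effects gave -0.26 for S1pr1 (SE 0.08, adjusted p = 0.485) and -0.69 for Ednrb (SE 0.25, adjusted p = 0.546), again with no call among the 10 genes and 0% among all. In these 4 comparisons (with subtype as a term, within AST1, within AST3 and the difference), 2 of the 10 genes each had an unadjusted p under 0.05, beside 5.14%, 8.42%, 6.86% and 9.06% of all genes. DESeq2 called 1, 3, 2 and 3 of the 10, beside 6.32%, 9.34%, 7.45% and 9.78%, and limma voom none, beside 0.152%, 0%, 0.0232% and 0%.

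The signalling genes around the receptors were compared as 7 lists. Of 28 G protein subunits, 13 had a mean of at least 20 CPM in astrocytes, and of 42 phospholipase C, IP3 and calcium genes 24 did, as did 9 of 28 cyclic AMP genes, 7 of 25 regulators of G protein signalling, receptor kinases and arrestins, 13 of 27 genes of ligand supply and removal, 3 of 22 other receptors of the same families and 15 of 38 other receptors described in astrocytes. In AST4 against AST1, where 2.00% of all genes were called, none of 22 G protein subunits, 13 other receptors of the same families, 26 cyclic AMP genes or 23 regulators tested was called in the edgeR fit, with 1, 2, 7 and 2 of them at an unadjusted p under 0.05, beside 10.5% of all genes. DESeq2 called 0, 5, 5 and 3 of these, beside 16% of all genes, and limma voom 1, 0, 2 and 0, beside 2.14%. Of 39 phospholipase C, IP3 and calcium genes only Atp2a2, the pump that returns calcium to the endoplasmic reticulum, was called (log2 difference -1.51, SE 0.34, adjusted p = 0.0467). The median of that list was -0.38, against -0.0067 over all genes.

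In this comparison, with 2.00% of all genes called, genes that handle ligands fell in AST4 in 4 of 19 cases, among them Ece1, which makes endothelin (-3.06, SE 0.61, edgeR adjusted p = 0.0224), Maob, which breaks down monoamines (-2.37, SE 0.35, adjusted p = 0.00249), and Adk, which removes adenosine (-1.23, SE 0.26, adjusted p = 0.0310). Other receptors described in astrocytes fell in 4 of 25 cases, among them the orphan receptors Gpr146 (-1.72, SE 0.39, adjusted p = 0.0498) and Gprc5b (-1.47, SE 0.32, adjusted p = 0.0391) and the metabotropic glutamate receptor Grm3 (-1.46, SE 0.30, adjusted p = 0.0249). No gene of these 2 lists was called higher in AST4 than in AST1 by edgeR, while DESeq2 called 1 and 2 higher, beside 3.34% of all genes, and limma voom 0 and 1, beside 1.13%. The lysophosphatidic acid receptor Lpar1 had an edgeR adjusted p of 0.0660 there and was called higher in AST4 against the mean of AST1 to AST3 (adjusted p = 0.0410). Between AST2 and AST3, and between hippocampus and cortex in all astrocytes, none of the genes of the 7 lists was called by edgeR, with 0 to 5 and 3 to 13 genes of a list at an unadjusted p under 0.05 (4.19% and 13.6% of all genes). DESeq2 called 0 to 3 genes of a list between AST2 and AST3 and 3 to 12 between areas (5.37% and 9.70% of all genes), and limma voom 0 to 3 and 0 (1.50% and 0.0261%).

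Mural cells differed from astrocytes in the same signalling families in both directions. Of 13 other receptors of the same families, 4 were higher in astrocytes and 5 lower. S1pr3, a further sphingosine 1-phosphate receptor (-8.28, SE 1.51, edgeR adjusted p = 0.0156), P2ry14, a receptor for UDP-sugars (-7.42, SE 0.64, adjusted p = 0.000321), and Adora2a, a further adenosine receptor (-5.05, SE 0.74, adjusted p = 0.00437), were lower in astrocytes, while Gpr37, the closest relative of Gpr37l1, was higher (adjusted p = 0.00145). S1pr1 and Adora1 had the opposite direction from S1pr3 and Adora2a. Rgs4 and Rgs5, which shorten G protein signals, were lower in astrocytes by 13.09 (SE 1.54) and 9.64 (SE 0.99) on the log2 scale, and Rgs5 is itself 1 of the mural markers used. From the same list, Rgs20 (15.06, SE 1.83) and Rgs7 (12.38, SE 2.42) were higher in astrocytes. The G protein gamma subunit Gng11 (-5.30, SE 0.39) and the Gq-family alpha subunit Gna11 (-1.25, SE 0.29) were lower in astrocytes as well. Of the phospholipase C, IP3 and calcium genes and the cyclic AMP genes, Plcd4, Atp2b2, Adcy8 and Adcy2 were among those higher. Plce1 (-4.32, SE 0.79), Calm2 (-1.71, SE 0.27), Akap12 (-10.31, SE 2.86) and Prkar1a (-1.32, SE 0.17) were among those lower. Of 25 other receptors described in astrocytes, 8 were higher in astrocytes and none lower, with 15.1% of all genes called.

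Over the 14 sums of AST1 to AST4, the genes whose levels were most like those of Ednrb among 6842 genes were Serpine2 and Abhd3 (Pearson r of log2(CPM + 1) = 0.99 and 0.98), those most like Gpr37l1 were Hacd2 and Gabrg1 (0.99 for both) and those most like S1pr1 were Kcnk1 and Cxcl14 (0.99 for both). For Adora2b they were Apln and Btbd17 (0.98 for both), for Itpr2 Rab9 and Chchd10 (0.94 and 0.93), for Adora1 Zfp871 and Rab11fip3 (0.89 and 0.88) and for Adra1a Zfp62 and Ldhd (0.88 and 0.87). P2ry1, Adra2a and Adrb1 had a mean under 20 CPM and were left out. All 14 sums share 4 suspensions, and the 2 AST4 sums lie far from the others for most of these genes.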

How the data were processed

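Gene counts of single cells (Smart-seq2) were used as deposited. The authors aligned reads with STAR 2.5.2b to GRCm38.p5 with Gencode M12 and ERCC sequences, kept uniquely mapped reads and obtained raw counts per gene with HTSeq; the deposited counts are not normalized. Of 2031 cells, 2030 had a file. Of the series-wide table, 32 columns were compared with these files (320 of 320 values equal) and 1999 columns were not used. Types and subtypes are the authors' list; 15 cells without a type and 33 cells of 1 plate that are not in the copy used here entered no comparison.

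Counts were summed per type and suspension, and sums of at least 5 cells (types, AST5) or 10 cells (subtypes) were kept. Levels are CPM (counts scaled to 1000000 per sum). Fits used edgeR 4.0.16 (TMM, filterByExpr, robust quasi-likelihood test) in R 4.3.3, with region as a term and Benjamini-Hochberg adjustment over all genes tested; calls have an adjusted p under 0.05. DESeq2 1.42.0 and limma 3.58.1 (voom with quality weights) were alternatives, and the scripts were tested on simulated counts. The SE is that implied by the quasi-likelihood F. Depth per cell was 600758 to 3238215 counts. For shares, cells were also thinned to 50000 counts, and intervals are 95% Wilson intervals. The share allowed where no cell had a count is 3 divided by the number of cells. That limit pools the suspensions and treats cells as independent, so that it leaves out differences between suspensions. P-values measure the residual spread between sums, all from 4 suspensions, 2 per area. There were 4 sums for areas in all astrocytes, 13 for types and 14 for AST1 to AST4. With AST5 there were 17, and for areas within AST1 and AST3 there were 8. Except in the paired fits, sums that share a suspension entered as independent.

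Suspensions pair the types, since all types of a suspension come from the same animals; deviations of sums that share a suspension had a median correlation of -0.111 between types and 0.00369 between subtypes. Positions and exon lengths came from GENCODE M21 on GRCm38. The genes and lists were chosen with earlier results of these data known. List genes are named where called with a mean of at least 20 CPM, the 3 largest differences per list and direction. A few pairs of genes were named after their values were seen, as stated beside them.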

Additional observations from a re-analysis of the deposited data

Results flagged for a closer look

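Among 47 sets of 4 suspensions, 5 values stood apart from the other 3 by Dixon's test; chance gives about 1 in 20. Itpr2 in mural cells was at 319.3 CPM in Hippocampus replicate 1, above 226.5 to 238.01 CPM in the others. Adora2b in mural cells was at 116.1 CPM in Cortex replicate 1, above 0 to 12.8 CPM. P2ry1 in mural cells was at 8.99 CPM in Hippocampus replicate 2, from 1 cell. In AST2 of Hippocampus replicate 1, a sum of 10 cells, P2ry1 was at 79.7 CPM and Adora2b at 485 CPM, each above the other 3 suspensions.

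Cells that entered no comparison also held these transcripts. Of 15 cells without a type, 46.7% had a count of Ednrb, 66.7% of Gpr37l1 and 73.3% of S1pr1. Of the 33 cells that are not in the copy of the type list, 30.3% had a count of Itpr2, 21.2% of Adora1, 45.5% of Adora2b, 84.8% of Ednrb, 96.97% of Gpr37l1 and 93.9% of S1pr1. Shares of mural cells, given for comparison, were 17.9% for S1pr1 and 21.6% for Gpr37l1.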

How the results depend on the processing

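Under 19 alternative settings, 2136 values of the 10 genes were computed again. Of these 1850 kept their direction and their side of the threshold, 72 gained a call and 4.82% lost one with the direction kept, and 5.197% changed sign. Of the sign changes, all but 3 were between values that were not called. The 3 were called in the alternative: Adra1a, among cells labelled with 1 freeze/thaw cycle of the template-switching oligo, had log2 differences of 5.465 for AST2 against the other subtypes, -14.17 for AST4 against their mean and -13.133 for AST4 against AST1. Of 38 calls 7 held in every alternative. Under the paired block, 2 of the 10 genes were called against mural cells (5 without it), 2 against endothelial cells (4) and 3 against neurons (3), and it changed no other count by over 1.5 times. Over all genes the block called 2.33% (15.1% without it), 1.87% (5.61%) and 1.74% (2.86%) in these 3 comparisons, and 0.00542% (0.0487%) between AST2 and AST3. Leaving out 1 suspension gave 1 to 2 calls against mural cells, 1 to 2 against endothelial cells and 1 to 2 against neurons, 1 to 3 for AST1, 3 to 5 for AST2, 3 to 4 for AST3, 4 to 5 for AST4 in both comparisons and 5 to 7 for AST5, and 0 to 0 for AST2 against AST3 and all area comparisons. Without a hippocampal suspension 1 AST4 sum and 1 neuron sum were left and were assumed to vary like the other groups.

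The share of all genes called under the same setting stands in parentheses. DESeq2 called 8 genes against endothelial cells (36.5%), 7 against neurons (30.4%), 5 in AST1 (9.82%), 8 in AST5 (43.3%), 4 between areas in all astrocytes (9.7%), 1 adjusted for subtype (6.32%), 3 within AST1 (9.34%), 2 within AST3 (7.45%) and 3 for the difference of these (9.78%). With limma voom there were 7 against endothelial cells (34.6%), 7 against neurons (25.2%), 0 in AST1, AST2 and AST3 (0.341%, 2.7% and 0.905%), 1 in each AST4 comparison (4.16% and 2.14%) and 4 in AST5 (22.9%), of which 2 were edgeR calls. Restricting the test to genes counted in over 25% of cells of a group gave 3 against mural cells (18.1%), 3 in AST5 (20.5%), 3 between areas (22.3%) and 1 within AST3 (1.77%). Without a low-count filter 2 were called against endothelial cells (2.05%), without the region term 6 against neurons (4.11%), and after thinning 1 between areas (1.4%). Weighting the other subtypes by cell number gave 0 in AST1, AST2 and AST3 (0.179%, 0.238% and 0%). Among cells labelled with 0 such cycles, 1 was called against endothelial cells (5.07%) and 3 in each AST4 comparison (1.62% and 1.24%), and among those with 1 cycle 1 against endothelial cells (3.24%).

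Over all genes, edgeR and DESeq2 called 2623 and 4974 against mural cells, 977 and 6350 against endothelial cells, 497 and 5287 against neurons, 140 and 1813 in AST1, 1.39% and 14.2% of genes in AST2, 150 and 1850 in AST3, 533 and 3596 in AST4, 370 and 2948 for AST4 against AST1, 9 and 991 for AST2 against AST3, 3048 and 7897 in AST5, 0 and 1858 between areas, 16 and 1167 adjusted for subtype, 0 and 1608 within AST1, 1 and 1283 within AST3, and 0 and 1683 for the difference of these. RLE size factors moved the median of all genes by -0.233 (mural), -0.338 (endothelial), -0.409 (neurons), 0.104 (AST4), 0.127 (AST4 against AST1) and -0.116 (difference of area effects) on the log2 scale. The causes were not tested.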
